A study of Homo sapiens with 6 samples.

Results

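*EGR1*, *FOSL1*, *DUSP1* and *CEBPG* are regulators of the early response to growth signals and stress, and they were taken by their gene symbols from the deposited table, where they are 4 of 1161 rows. The 6 mRNA libraries came from MDA-MB-231 cells, a human triple negative breast cancer line tagged with GFP and labelled with the vital dye CellVue Claret (CV). Female C.B-17 SCID mice aged 6 to 8 weeks received the labelled cells by the internal carotid artery, and brains were taken at day 28. Cells that had lost the dye were sorted as proliferating (GFP+CV-) and cells that had kept it as dormant (GFP+CV+), with 3 libraries of each. Each replicate number marks 1 pool of mice, 10 for replicates 1 and 2 and 9 for replicate 3, from which both populations were sorted. Both populations thus shared the cell line, the dye labelling, the host strain, the enzymatic dissociation and the sort. All 6 libraries were made after that handling, and its part in the levels of the 4 genes was not tested. SCID mice lack mature lymphocytes but keep microglia and other myeloid cells, and the population is defined by the dye, not by a direct measure of the cell cycle. In bulk libraries of sorted cells, fewer cells of a type and less RNA per cell cannot be told apart.

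Immediate early genes are transcribed within minutes of a growth factor or stress signal, without new protein synthesis, from promoters that are held ready. In the best known route, the ERK MAP kinases phosphorylate ternary complex factors such as ELK4, which sit with serum response factor on CArG boxes, while other kinases act on CREB at cyclic AMP response elements. *EGR1* encodes a zinc finger transcription factor that is a standard example of such a gene. *FOSL1* encodes FRA-1, an AP-1 subunit that is abundant in triple negative breast cancer cells and that ERK signalling stabilises. *DUSP1* encodes MKP-1, a nuclear phosphatase that switches off p38, JNK and ERK and so limits the signal that induced it. *CEBPG* encodes a small C/EBP family protein that pairs with ATF4 on genes of the integrated stress response, the program that cells use when translation is restrained.

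All 4 are protein-coding genes. In GENCODE 44 on GRCh38, *EGR1* (ENSG00000120738.7) has 2 exons on the plus strand of chromosome 5, from 138465479 to 138469303. *DUSP1* (ENSG00000120129.5) has 4 exons and lies on chromosome 5, minus strand, at 172768096 to 172771195. *FOSL1* (ENSG00000175592.8) has 4 exons in its canonical transcript and lies on chromosome 11, minus strand, at 65892049 to 65900573. *CEBPG* (ENSG00000153879.8) has 2 exons in its canonical transcript on the plus strand of chromosome 19, from 33373685 to 33382686. *DUSP1* lies within a long noncoding RNA gene on the opposite strand, which is not a row of the table. The library protocol does not mark strand, so reads of *DUSP1* and of that gene cannot be told apart where their exons overlap.

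The sequences upstream of the transcription start are shown for *EGR1*, *DUSP1* and *CEBPG*, to show which of the signal-responsive elements named above each holds. They are from RefSeq on GRCh38.p14, 5′ to 3′ on the strand of the gene, and the capitals mark CArG boxes, cyclic AMP response elements (CRE, TGACGTCA) and their TGACG cores, a match to the EGR motif (GCGNGGGCG), the TATA box (TATAAA) and the CCAAT box (CCAAT). The windows are chr5:138465229-138465478 on the plus strand for *EGR1*, chr5:172771196-172771445 on the minus strand for *DUSP1* and chr19:33373459-33373684 on the plus strand for *CEBPG*. The *CEBPG* window ends just before its earliest annotated start, which lies upstream of the start that positions are counted from. *FOSL1* was not in the promoter table.
EGR1: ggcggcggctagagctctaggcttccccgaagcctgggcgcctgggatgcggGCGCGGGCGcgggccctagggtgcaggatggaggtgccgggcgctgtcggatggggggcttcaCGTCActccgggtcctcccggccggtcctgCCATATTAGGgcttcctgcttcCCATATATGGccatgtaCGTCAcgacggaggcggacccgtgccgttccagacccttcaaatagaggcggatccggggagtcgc
DUSP1: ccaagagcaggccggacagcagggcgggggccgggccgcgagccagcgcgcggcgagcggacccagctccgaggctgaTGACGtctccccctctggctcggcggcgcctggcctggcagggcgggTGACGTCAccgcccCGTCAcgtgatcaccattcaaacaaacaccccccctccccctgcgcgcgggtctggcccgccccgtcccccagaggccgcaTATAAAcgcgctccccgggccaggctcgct
CEBPG: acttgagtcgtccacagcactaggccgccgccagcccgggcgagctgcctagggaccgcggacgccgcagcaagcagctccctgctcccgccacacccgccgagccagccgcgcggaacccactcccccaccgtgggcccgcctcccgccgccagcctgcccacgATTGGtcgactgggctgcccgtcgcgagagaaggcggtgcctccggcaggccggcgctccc

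Each motif was searched on both strands. The *EGR1* window held 2 CArG boxes, from -105 to -96 and from -83 to -74 relative to the start, and 2 TGACG cores, but no full CRE. CArG boxes were in 1.16% of 35116 RefSeq promoter windows of 250 bases. The match to EGR1's own motif, from -198 to -190, is of a kind found in 8.41% of windows. The *DUSP1* window held a full CRE from -125 to -118, 2 further TGACG cores outside it and a TATA box from -30 to -25, but no CArG box. A full CRE was in 1.65% of windows, a TGACG core in 21.2% and this TATA sequence in 10.7%. In the *CEBPG* window a single CCAAT box was found, from -85 to -81, a motif that 30.4% of windows of 226 bases share. The AP-1 motif TGANTCA (6.57% of windows of 250 bases) and the C/EBP-ATF motif TGATGNAA (3.14%) were in none of the 3 windows. GC-rich SP1 boxes (GGGCGG, in 42.6% of windows) were found 4 times upstream of *DUSP1* and were not found in the other two windows. These matches describe letters in the reference and say nothing of binding in these cells.

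**Figure D1:**
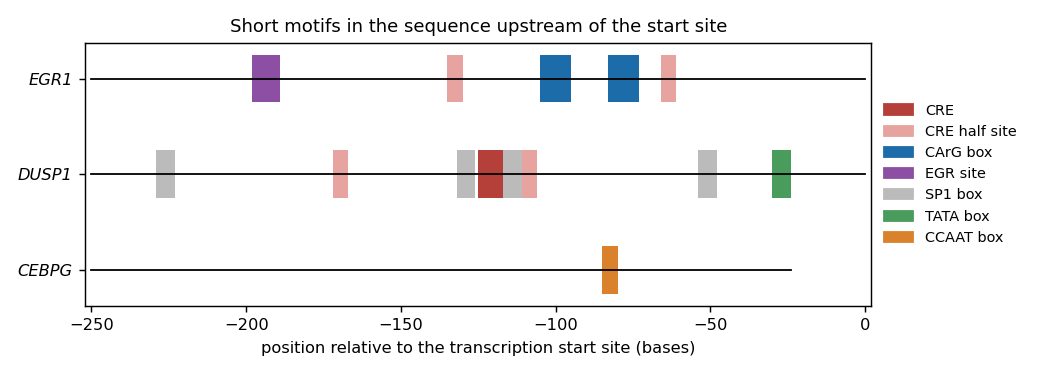
Map of short motifs upstream of *EGR1*, *DUSP1* and *CEBPG*, with the position in bases relative to the transcription start site on the x axis and one line per gene. Coloured blocks stand for motif matches on either strand, and the 2 CArG boxes are in *EGR1* while the full CRE and the TATA box are in *DUSP1*.

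The values are normalized read counts, the authors' counts divided by one size factor per library. Every row of the table is a gene selected by the authors on this very contrast. The paper counts 1161 genes as differentially expressed at a false discovery rate below 0.05, and the table has as many rows. By the quasi-likelihood test of edgeR, with p-values adjusted over the table (Benjamini-Hochberg), 99.7% of its rows passed the threshold of 0.05, so that a pass by any row adds little to its presence in the table. The rows were then spread over 20000 genes, and those not in the table were taken to have larger p-values. In edgeR's test 3 rows (0.258%) then passed and none of the 4 regulators did. This wider adjustment was made for edgeR's test alone, with a dispersion from selected rows and an assumed 20000 genes. It is not the test by which the authors selected the rows. The DESeq2 test, also run on the selected rows and adjusted over the table, gave smaller adjusted p-values than edgeR's. They were 2.1e-05 for *EGR1*, 4.6e-04 for *FOSL1*, 5.8e-05 for *DUSP1* and 3.3e-04 for *CEBPG*. For 99.2% of rows the populations had no overlapping values. A single gene that separates 3 from 3 libraries has an exact two-sided permutation p of 0.1, the smallest possible when the libraries are not paired. With the 3 pools as pairs, the smallest exact two-sided permutation p is 0.25. Counts of the rows summed to between 7978657 and 17928784 per library, which is part of the depth, and the lowest count of any of the 4 genes in any library was 609. Per the paper, GFP+CV+ cells were a small minority of the isolated GFP+ cells. In dormant libraries 115 to 127 rows were at 0, and in proliferating libraries 8 to 25.

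*EGR1* rose in dormant cells. Its normalized read counts were 728, 657 and 987 in proliferating replicates 1, 2 and 3. In dormant replicates 1, 2 and 3 they were 2852, 2354 and 1535. Every dormant library was above every proliferating library, and replicate 3 held both the highest proliferating and the lowest dormant value. The mean rose 2.84-fold, from 790 ± 174 to 2247 ± 665 (SD, n = 3). Its log2 fold change was 1.51 (standard error, SE, 0.34; edgeR adjusted p 0.00584, or 0.101 over 20000 genes). Within the pools the rise was 3.92-fold, 3.58-fold and 1.56-fold, so that its size differed between pools although its direction did not.

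*DUSP1*, the phosphatase that is itself an immediate early gene, went the other way. Its normalized read counts were 23490, 14139 and 72290 in proliferating replicates 1, 2 and 3, and 8306, 7820 and 6075 in the dormant ones. The dormant libraries lay close together, with an SD of 15.9% of their mean, while proliferating replicate 3 was far above the other proliferating libraries and the SD there was 85.2% of the mean. The mean fell from 36640 ± 31226 to 7401 ± 1173 (SD, n = 3). The log2 fold change was -2.31 (SE 0.56, edgeR adjusted p 0.00696, or 0.120 over 20000 genes), which is 4.95-fold lower. Without proliferating replicate 3 it was -1.35 (SE 0.25, edgeR adjusted p 0.0111), or 2.54-fold lower. *DUSP1* was thus lower in dormant cells with and without that library, but the size of the difference rested on it. Within the pools *DUSP1* was 2.83-fold, 1.81-fold and 11.9-fold lower.

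*FOSL1* fell in dormant cells. Its change was the smallest of the 4 with the authors' size factors, but not with median ratio scaling, where its log2 fold change was -1.24 against 0.94 for *EGR1* and 0.58 for *CEBPG*. Its normalized read counts were 38192, 27286 and 34161 in proliferating replicates 1, 2 and 3, and 22031, 22419 and 17842 in dormant replicates 1, 2 and 3. Each dormant library lay below the lowest proliferating library, and pool 2 had the smallest gap, 1.22-fold, against 1.73-fold and 1.91-fold in pools 1 and 3. The mean fell from 33213 ± 5515 (SD, n = 3) to 20764 ± 2538 (SD, n = 3), a log2 fold change of -0.68 (SE 0.15, edgeR adjusted p 0.00608, or 0.105 over 20000 genes). In size, 965 of the 1161 rows had a larger log2 fold change in either direction. With every library scaled to the same total over the selected rows, which is not the library depth, the log2 fold change of *FOSL1* was -0.38. Its edgeR adjusted p-value was then 0.0559.

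*CEBPG* rose in dormant cells. Its normalized read counts were 2964, 2167 and 2198 in proliferating replicates 1, 2 and 3. They were 5405, 3707 and 7675 in dormant replicates 1, 2 and 3. The populations did not overlap, and dormant replicate 3 was the highest library. The mean rose 2.29-fold, from 2443 ± 451 to 5596 ± 1991 (SD, n = 3). On the log2 scale this was 1.20 (SE 0.30, edgeR adjusted p 0.00715, or 0.123 over 20000 genes), and the rise was 1.82-fold, 1.71-fold and 3.49-fold within pools 1, 2 and 3. With the libraries scaled by their median ratio over the table, the log2 fold change was 0.58 and the edgeR adjusted p-value 0.0573.

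**Figure D2:**
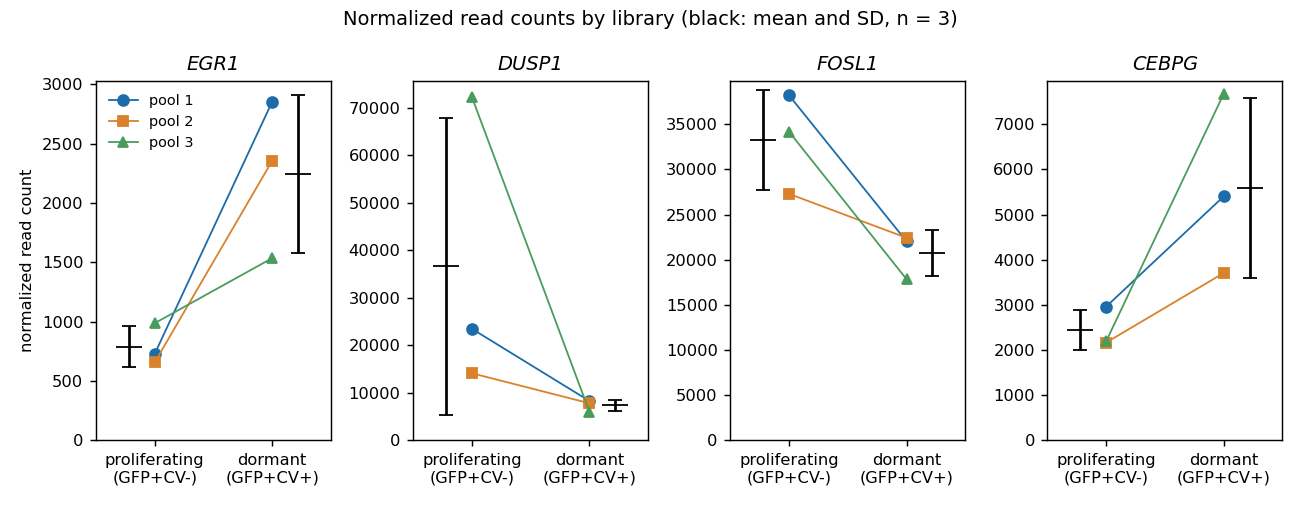
Normalized read counts of *EGR1*, *DUSP1*, *FOSL1* and *CEBPG* in the proliferating and dormant libraries, with each y axis starting at 0, lines joining the libraries of one pool and black bars giving the mean and SD (n = 3). *EGR1* and *CEBPG* are higher and *DUSP1* and *FOSL1* lower in the dormant library of every pool, and *DUSP1* in proliferating replicate 3, at 72290, stands far above the rest.

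Per kilobase of annotated exon, normalized read counts can be compared only roughly between the genes. The length used is the union of all annotated exons, not that of the transcripts present in these cells. In proliferating cells the levels per kilobase were 18202 ± 15512 for *DUSP1*, 17601 ± 2922 for *FOSL1*, 602 ± 111 for *CEBPG* and 252 ± 55.4 for *EGR1* (SD, n = 3). *DUSP1* and *FOSL1* did not differ there beyond their spread, and *DUSP1* was the higher of the pair in replicate 3 alone. In dormant cells the order was *FOSL1* with 11004 ± 1345, *DUSP1* with 3676 ± 583, *CEBPG* with 1380 ± 491 and *EGR1* with 716 ± 212 per kilobase (SD, n = 3). There *FOSL1* lay above *DUSP1* in every library. *CEBPG* lay above *EGR1* in each of the 6 libraries, by the smallest margin in dormant replicate 2 (914 against 750 per kilobase). *FOSL1* stood above 93.2% to 94.6% of rows with a known length in every library, while the share of rows below *DUSP1* was 88.4% to 97.1% in proliferating and 79.9% to 86.2% in dormant libraries.

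The ratio of 2 genes within a library does not depend on how libraries are scaled. *EGR1* and *DUSP1* answer to overlapping signals, and in proliferating replicates 1, 2 and 3 *EGR1* had 3.10%, 4.64% and 1.36% as many counts as *DUSP1*. In dormant replicates 1, 2 and 3 the share was 34.3%, 30.1% and 25.3%. The mean log2 ratio was -5.21 ± 0.90 (SD, n = 3) in proliferating and -1.75 ± 0.22 (SD, n = 3) in dormant cells, a difference of 3.46, or 11.0-fold. Counts of *CEBPG* were 7.76%, 7.94% and 6.43% of those of *FOSL1* in proliferating replicates 1, 2 and 3 and 24.5%, 16.5% and 43.0% in the dormant ones, a 3.53-fold difference in the mean ratio. Each ratio sets a gene that was higher in every dormant library over one that was lower in every one, so the separation of the populations follows from the genes' own values, and the ratios are given as a description with no test. The proliferating ratios of *CEBPG* to *FOSL1* were tight and the dormant ones spread, while the reverse held for *EGR1* to *DUSP1*.

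**Figure D3:**
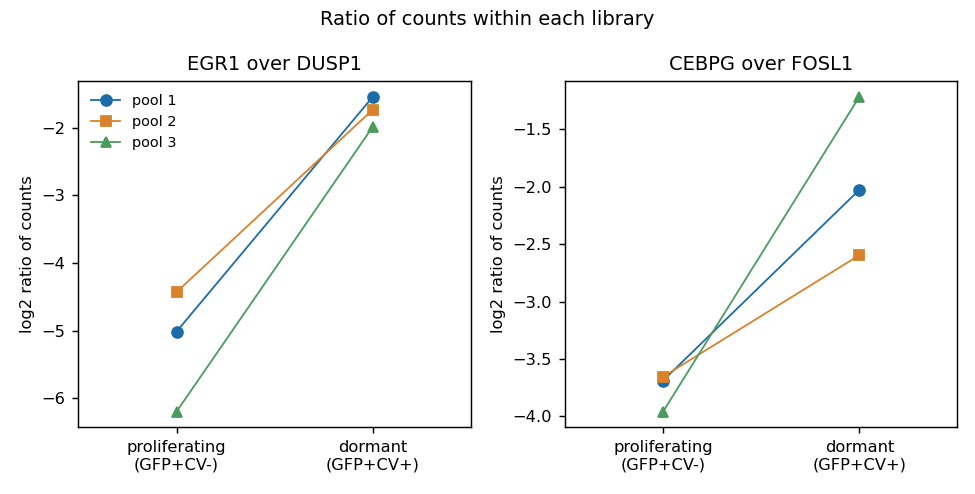
Log2 ratio of the counts of *EGR1* to *DUSP1* and of *CEBPG* to *FOSL1* within each library, with lines joining the libraries of one pool. Both ratios are higher in the dormant library of all 3 pools, by 3.46 and 1.82 on average.

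Other genes of the same pathways were read from lists. Genes of a list that are not rows of the table were not among those the authors selected, and they were not analysed here. Over all rows, 49.6% were called higher and 50.0% lower in dormant cells, and the median log2 fold change was -0.33. Of 53 immediate early genes, 8 were rows of the table. Of these, 4 were higher (*ZFP36L2*, *BTG1*, *TRIB1* and *EGR1*) and 4 lower (*FOSL1*, *ID3*, *ID1* and *DUSP1*) in dormant cells, and their median log2 fold change was 0.41. The list was thus split evenly, as the whole table was. *ZFP36L2*, which encodes a protein that binds AU-rich elements and promotes mRNA decay, rose by 2.54 on the log2 scale (SE 0.59), and by 3.34 without proliferating replicate 1, where its level was highest among the proliferating libraries. *BTG1*, an antiproliferative gene, rose from 2500 ± 781 to 11625 ± 3539 normalized read counts (SD, n = 3). *TRIB1*, a pseudokinase gene, rose by 2.14 on the log2 scale (SE 0.30). *ID1*, an inhibitor of basic helix-loop-helix factors, had 14741, 10323 and 15359 normalized read counts in proliferating and 5834, 3177 and 1756 in dormant replicates 1, 2 and 3. Its log2 fold change was -1.91 (SE 0.41), and that of its relative *ID3* was -0.79 (SE 0.20).

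Of 10 MAP kinase phosphatases, *DUSP1* and *DUSP16* were rows of the table, and they moved in opposite directions. *DUSP16*, which acts mainly on JNK and p38, had 460, 258 and 561 normalized read counts in proliferating and 1765, 1102 and 1619 in dormant replicates 1, 2 and 3, which is 1.81 higher on the log2 scale (SE 0.42). Among 56 genes of the MAP kinase cascade, 6 were rows. *PDGFRB*, a receptor tyrosine kinase, *MAPKAPK5*, a kinase downstream of p38 and ERK3, *ELK4*, a partner of serum response factor, *MAPK7*, which encodes ERK5, and *MAP3K2* were higher in dormant cells. *RPS6KA5*, which encodes MSK1, a kinase that phosphorylates CREB and histone H3 at immediate early genes, was lower, at -3.02 on the log2 scale (SE 0.91). Of *RPS6KA5*, normalized read counts were 364, 389 and 999 in proliferating and 23.8, 156 and 35.9 in dormant replicates 1, 2 and 3. Proliferating replicate 3 was the highest library for *RPS6KA5* as it was for *DUSP1*, and without it the log2 fold change was -2.39 with an edgeR adjusted p-value of 0.0526. Without dormant replicate 2, the highest dormant library, the log2 fold change of *RPS6KA5* was -4.29. Scaled by the median ratio, 3 of the 6 passed, 2 higher and 1 lower, and without proliferating replicate 3, 4 passed, all higher, since *ELK4* did not pass there either (edgeR adjusted p 0.0550). The call of *MAP3K2* was lost without proliferating replicate 1 and that of *ELK4* without dormant replicate 1, with edgeR adjusted p-values of 0.0531 and 0.0535.

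*CEBPG* belongs to the integrated stress response, of which 6 of 49 genes were rows of the table. All 6, *CEBPG* included, were higher in dormant cells, at a median of 1.23 on the log2 scale. With median ratio scaling 4 of them passed, while *CEBPG* (0.58) and *EIF2AK1* (0.28) did not. The rest of the list was not among the genes the authors selected. *GDF15*, a stress-induced cytokine of the TGF-beta family, had 410, 628 and 539 normalized read counts in proliferating and 3263, 4304 and 8167 in dormant replicates 1, 2 and 3. Its log2 fold change was 3.32 (SE 0.40), the largest of the list. *SLC7A11*, the cystine transporter, rose by 1.91 on the log2 scale (SE 0.33), and *NUPR1*, a stress-inducible chromatin protein gene, by 1.27 (SE 0.26). *SLC1A5*, the glutamine transporter, and *EIF2AK1*, the kinase HRI that senses haem and mitochondrial stress, had log2 fold changes of 1.03 (SE 0.18) and 0.84 (SE 0.20). Like *CEBPG*, *GDF15* and *SLC7A11* had their highest value in dormant replicate 3.

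Both *CEBPG* and *FOSL1* encode basic leucine zipper (bZIP) factors. Of 52 bZIP genes, the only other row was *XBP1*, the transcription factor of the unfolded protein response, with 4075, 2337 and 2081 normalized read counts in proliferating and 9673, 9670 and 11445 in dormant replicates 1, 2 and 3. Its log2 fold change was 1.86 (SE 0.27). Of 29 heat shock genes, 5 were rows, 2 higher and 3 lower in dormant cells, at a median of -0.41 on the log2 scale. *CRYAB*, a small heat shock protein gene that astrocytes also express, had at most 26.0 normalized read counts in a proliferating library and at least 432 in a dormant one. *HSPH1*, a large co-chaperone gene, rose by 1.17 on the log2 scale (SE 0.27) but did not pass with median ratio scaling (0.59). *HSP90AA1*, the stress-inducible HSP90, and the mitochondrial co-chaperonin gene *HSPE1* were lower by log2 fold changes of -0.41 (SE 0.10) and -0.54 (SE 0.15), and neither passed with libraries of equal totals. *HSPA1L*, at -4.27 on the log2 scale and at -3.56 without proliferating replicate 3, shares sequence with *HSPA1A* and *HSPA1B*, and since reads that map to several places were counted, its reads are uncertain.

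**Figure D4:**
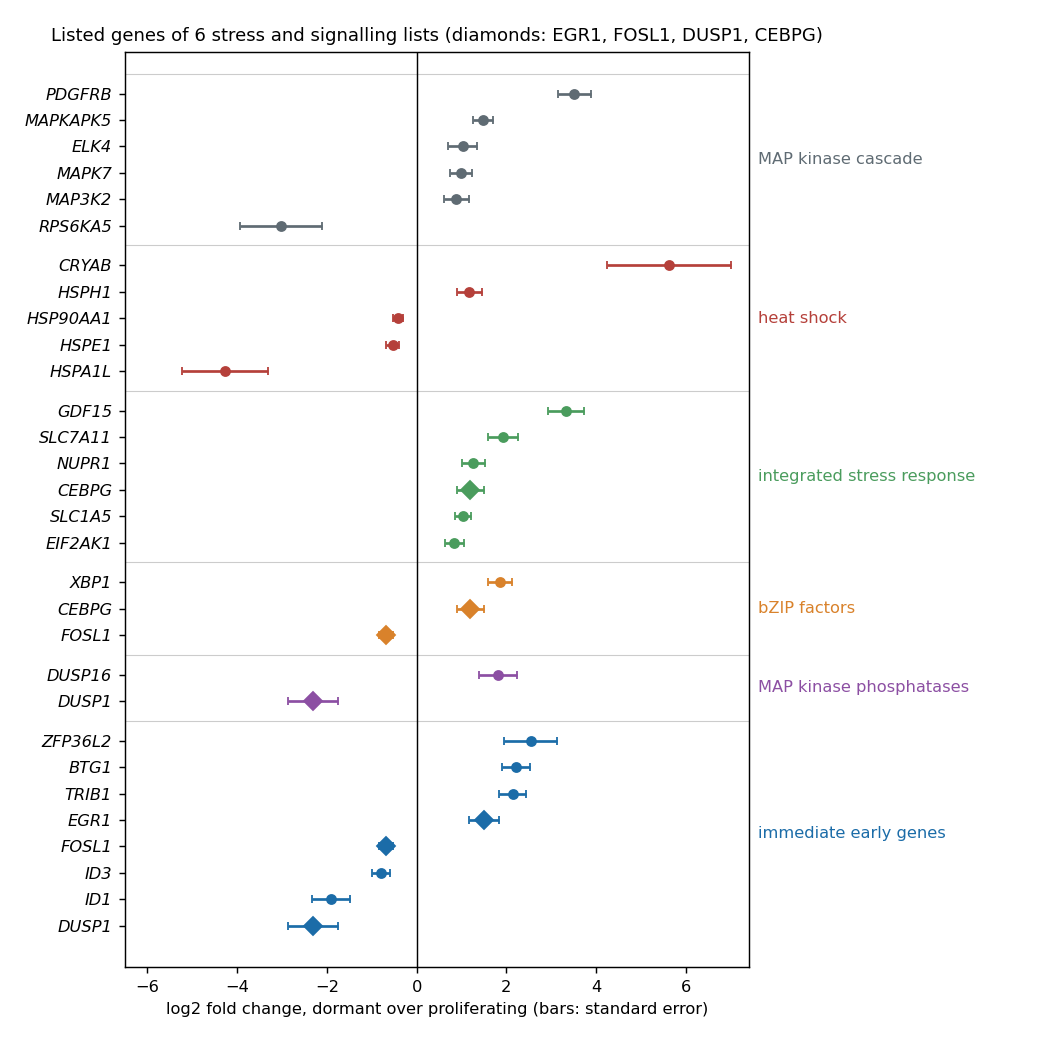
Log2 fold changes of dormant over proliferating cells with standard errors for the rows of the table on 6 lists, one row per gene and colour per list, with diamonds for *EGR1*, *FOSL1*, *DUSP1* and *CEBPG*. The 6 genes of the integrated stress response lie to the right of 0, while the 8 immediate early genes lie 4 to each side.

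The genes whose pattern over the 6 libraries was nearest were found as the root mean square difference of log2 values, each gene centred on its mean. For *EGR1* these were *AC118344.2*, a clone-named transcript, *SLC30A5*, a zinc transporter gene, and *FBXO45*, an F-box gene, with differences of 0.15 each. For *FOSL1* they were *MT2A*, a metallothionein gene, with 0.07, and *ABHD14A-ACY1*, a readthrough transcript, and *TSPO*, a mitochondrial outer membrane protein gene, with 0.09 each. *CEBPG* lay nearest to *WAPL*, which encodes the cohesin release factor, with 0.10, then to *KRT10* with 0.13 and *LIME1* with 0.18. *DUSP1* had no such close match, and its nearest rows were *PTGES*, which encodes a prostaglandin E synthase, with 0.40, *RAMP1*, a receptor subunit gene, with 0.47, and *SERPINA1*, the alpha-1 antitrypsin gene, with 0.50. Each of these 3 was highest in proliferating replicate 3, as *DUSP1* was, with 14148 for *PTGES*, 6493 for *RAMP1* and 20711 for *SERPINA1* against at most 7054, 2873 and 13818 in the other proliferating libraries.

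Marker lists were read as well, but they cannot check the labels, since every row was selected on this contrast. Of 35 proliferation genes, *MCM3* and *TYMS* were rows of the table and both were lower in dormant cells. Neither passed with equal totals, and *TYMS* did not pass without proliferating replicate 1 (edgeR adjusted p 0.0505). The rest of that list was not among the genes the authors selected. Of 20 markers of MDA-MB-231 and epithelial cells, 8 were rows and all were lower in dormant cells (5 passed with equal totals), with sums of 1285948 to 1412684 normalized read counts in proliferating and 785760 to 820619 in dormant libraries. Markers of other cells moved with the populations too, in a table from which the authors had discarded mouse reads. Of 13 fibroblast markers, 5 were rows, with sums of 4107 to 7492 in proliferating and 46010 to 74506 in dormant libraries, and of 14 astrocyte markers 3 were rows, with sums of 580 to 1339 and 3984 to 7215. All of these rows were higher in dormant cells, and some changed far more than the sums. *BGN* rose from 11.7 ± 2.5 to 5582 ± 1745 and *SPARCL1* from 5.2 ± 1.8 to 1401 ± 769 (SD, n = 3). The paper also measured *BGN* mRNA by qPCR in dormant and proliferating cancer cells. It detected the *BGN* protein, biglycan, in rare GFP+ cells by immunofluorescence. Of 21 microglia and macrophage markers, 3 were rows, *CD4* higher and *CD74* and *ITGB2* lower in dormant cells, with sums of 51095 to 106568 in proliferating and 34731 to 45211 in dormant libraries. *CD74* made up nearly all of these sums. *CD4* went from 17.1 ± 1.7 to 1406 ± 355 and *ITGB2* from 830 ± 574 to 10.8 ± 11.5 (SD, n = 3). None of the 18 markers of neurons and oligodendrocytes was a row, and of 17 endothelial and mural markers *PDGFRB* was the only one, with 277 to 466 in proliferating and 2556 to 4755 in dormant libraries. No marker row was at 0 in every library of a population, though *APOE* was at 0 in 2 proliferating libraries and *DCN* in 1. *EGR1*, *DUSP1* and the stress genes are also expressed by such cells, and their part in the differences was not tested.

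The direction of all 4 genes was the same under each scaling, tool and left-out library. The scaling moved the sizes, since the median log2 fold change of the table was -0.33 with the authors' size factors, -0.91 with the median ratio and -0.04 with equal totals. The alternative scalings were computed from the selected rows alone, so they do not stand for library depth. With the median ratio 80.2% of rows passed (29.8% with a higher dormant level, 50.4% with a lower one), and with equal totals 81.7% (49.6% and 32.0%). With the replicate number as a block 94.5% passed, the 4 genes among them.

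**Figure D5:**
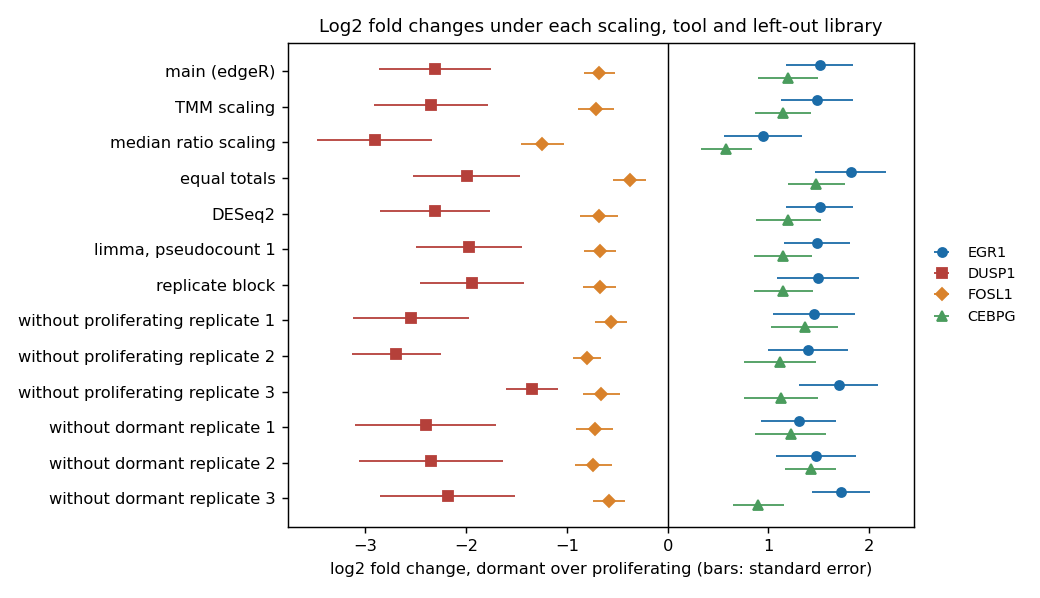
Log2 fold changes of dormant over proliferating cells for *EGR1*, *DUSP1*, *FOSL1* and *CEBPG* on the x axis, with standard errors, for each scaling, test and left-out library on the y axis. No point crosses 0, and *DUSP1* moves from -2.31 to -1.35 without proliferating replicate 3.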

How the data were processed

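Per the paper's methods, paired-end Smart-seq2 libraries were trimmed with Cutadapt, aligned with STAR to joined human GRCh38.p12 and mouse GRCm38.p6 assemblies and counted with Rsubread, multi-mapping reads included, and reads mapping to mouse were discarded. The deposited estimated counts are not normalized, and 43.2% to 49.6% of the values in a library are not whole. The deposited normalized read counts are a signal scale on which the authors divided rounded counts by DESeq2 size factors, recovered here as 0.724 to 1.38. Rounded counts divided by the recovered factors matched the deposited normalized read counts to within 5.04e-05. The table also holds columns of the authors' own DESeq2 comparison (a mean signal, a ratio or fold change, a log2 fold change, score values for its standard error and statistic, and p-values), none of which was used.

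Counts were rounded and every row was fitted with edgeR 4.0.16 (quasi-likelihood, R 4.3.3) with the authors' size factors and the population as the only term. Standard errors were taken as the log2 fold change over the square root of F. P-values are two-sided and adjusted by the Benjamini-Hochberg method over 1161 rows, or over 20000 genes as an alternative. The threshold was 0.05. Other alternatives were other scalings, DESeq2 1.42.0, limma 3.58.1 on log2 of the normalized count plus 1 or 10, rounding down, a minimum of 10 counts in 3 libraries, a replicate block and leaving out each library. The labels give both populations of a pool the same number, and per the methods both were sorted from one suspension, so same-numbered libraries are pairs. Deviations from the group mean correlated by 0.0567, -0.0183 and 0.00125 across rows in pairs 1, 2 and 3. The fits were run on simulated counts in which most rows were unchanged. The table holds selected rows, so the simulation does not show how the fits perform on it.

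The 4 genes and the lists were chosen with earlier results of these data known. Named genes are the 4, every row on 6 lists (immediate early genes, MAP kinase phosphatases, bZIP factors, integrated stress response, heat shock, MAP kinase cascade), the 3 rows nearest to each of the 4, and up to 4 rows with the largest change on the other lists, which hold unfolded protein response, MAP kinase feedback, FOSL1 target, NRF2, p53, proliferation and cell marker genes. Gene lengths are the union of GENCODE 44 exons, matched for 1157 rows. Promoter windows of 250 bases came from RefSeq on GRCh38.p14.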

Additional observations from a re-analysis of the deposited data

How the results depend on the processing

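Adjusted over 20000 genes, 3 rows passed edgeR's test in place of 1157. The adjusted p-values of edgeR's test were 0.101 for *EGR1* (log2 fold change 1.51), 0.105 for *FOSL1* (-0.68), 0.120 for *DUSP1* (-2.31) and 0.123 for *CEBPG* (1.20). DESeq2 was adjusted over the rows of the table alone, where its adjusted p-values for the 4 genes were at most 4.6e-04 (*FOSL1*). Its calls over 20000 genes were not computed, so edgeR's result over 20000 genes does not stand for DESeq2. The call of *FOSL1* was lost with equal totals (-0.38) and that of *CEBPG* with median ratio scaling (0.58), and the cause was not tested. Every other alternative kept the calls of the 4 genes, and none turned a direction, also not for the 61 other named genes. The replicate block changed none of these calls, with log2 fold changes of 1.49, -0.67, -1.94 and 1.15 for *EGR1*, *FOSL1*, *DUSP1* and *CEBPG*, and 1097 rows passed. With each library left out in turn, log2 fold changes ran from 1.30 to 1.72 for *EGR1*, from -0.80 to -0.57 for *FOSL1*, from -2.69 to -1.35 for *DUSP1* and from 0.90 to 1.42 for *CEBPG*, and 1089 to 1135 rows passed. The log2 ratio differences ran from 2.97 to 3.85 for *EGR1* to *DUSP1* and from 1.46 to 2.15 for *CEBPG* to *FOSL1*. The minimum count removed no row. The table does not give the depth of the libraries or genes the authors did not select, so the dispersion rests on selected rows.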

Other observations

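Of 22 genes listed under the p53 response, *MDM2*, the ubiquitin ligase that p53 induces, and *PLK3*, a stress-responsive polo-like kinase gene, were rows. Both were higher in dormant cells, with log2 fold changes of 1.25 (SE 0.34) and 1.55 (SE 0.44), and a part of p53 in this was not tested. *MDM2* did not pass with median ratio scaling, where its log2 fold change was 0.63, and that of *PLK3* was 2.24 without proliferating replicate 1. Of 27 genes of the NRF2 oxidative stress response, 4 were rows, 2 higher and 2 lower. The higher ones serve glutathione synthesis, *SLC7A11* and *GCLM*, the modifier subunit of glutamate-cysteine ligase, with 1.66 (SE 0.40). The lower ones remove peroxides, *CAT* with -0.60 (SE 0.13) and *PRDX1* with -0.50 (SE 0.12), and *PRDX1* did not pass with equal totals. Of 29 genes of the unfolded protein response, *XBP1* and *CRELD2* were higher and *HERPUD1* was lower, at -0.75 on the log2 scale (SE 0.18).

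Of 23 genes listed as targets of the *FOSL1* protein or of AP-1, *PLAU*, which encodes urokinase, had a log2 fold change of -0.68, SE 0.17, and was lower in dormant cells like *FOSL1* itself, while *CXCL8* and *TGFB2* were higher, with 1.05 (SE 0.28) and 0.70 (SE 0.18). Neither of the higher ones passed with median ratio scaling. Of 21 MAP kinase feedback genes, *FOSL1* was the only row of the table.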
